A study of Mus musculus with 4 samples.

Results

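The genes described here make up the glutathione and oxidative stress defence of the cell: enzymes that make, recycle and use glutathione, the thioredoxin and peroxiredoxin system, superoxide dismutases, catalase, metallothioneins, ferritin, and the regulator NRF2 with its sensor KEAP1. A list of 44 genes was taken by gene symbol, with earlier results of these data known, out of 12393 genes that had a probe set of their own on the array. Of the 44 genes, 40 had at least 1 such probe set, with 71 probe sets in all, and 38 were bright enough to be tested. Gstm7 and Mgst2 lay below the filter level of 23.9 signal units. Prdx1 and Ftl1 were on the array only through probe sets that the annotation assigns to several genes, and Prdx5 and Prdx6 had no probe set in the annotation used, so these 4 genes have no value here.

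RNA levels were measured on 4 Affymetrix arrays from R1 cells, a mouse embryonic stem (ES) cell line, all harvested 67 h after infection with a lentivirus that carried a short hairpin RNA (shRNA). In 2 samples the shRNA targeted Brg1, the ATPase subunit of SWI/SNF chromatin remodelling complexes, which is encoded by Smarca4. In the other 2 it targeted GLUT4, a glucose transporter encoded by Slc2a4, as the control. The samples were duplicate infections of a single cell line, so p-values measure the spread between infections, and the number of different hairpins per target is not given in the sources used here.

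Glutathione is a tripeptide whose thiol group reduces peroxides and is coupled to reactive compounds by the glutathione S-transferases. Its synthesis runs through glutamate-cysteine ligase, the rate-limiting step, and glutathione synthetase, and glutathione reductase returns the oxidised form to the reduced form with NADPH. NRF2 is a transcription factor that KEAP1 marks for degradation in unstressed cells. When oxidants or electrophiles modify KEAP1, NRF2 accumulates and activates genes with an antioxidant response element, among them those for glutamate-cysteine ligase, NQO1, heme oxygenase 1, thioredoxin reductase 1 and sulfiredoxin.

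Smarca4 fell in part in the knockdown, with 652.1 and 621.5 signal units on the knockdown arrays against 1186.6 and 1213.6 on the control arrays, or -0.89 ± 0.08 in log2 terms (SE, with limma's adjusted p = 0.000232). Slc2a4 lay below the filter level, with 20.9 and 23.9 on the knockdown arrays against 11.7 and 19.2 on the control arrays. Signals are linear intensities that had been scaled to 1 common level per array, and differences are those of log2(signal + 20.0). Over the 7815 genes tested, replicate arrays differed with an SD of 0.22 (log2) in the knockdown and 0.20 in the control. Of the 9 ES cell markers all were tested, and their summed signal was 18344.7 and 18017.1 on the knockdown arrays against 17052.3 and 17156.7 on the control arrays. Dppa5a, Pou5f1 and Zfp42 make up much of that sum. Nanog, Fgf4 and Esrrb rose, with log2 differences of 0.87, 0.52 and 0.38 (limma, adjusted p = 0.000299, 0.00854 and 0.016), and the other 6 ES cell markers did not pass. By share, 33.3% of these markers were higher, against 9.33% of all tested genes. Of the 9, 6 had positive and 3 negative log2 differences. Sox2 was lower without overlap (log2 difference -0.22), as 25.9% of all tested genes were, and Tdgf1 differed by -0.12 with overlap. Nanog, Fgf4 and Esrrb thus also moved with the rises described next, and their part in those rises was not tested.

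The defence genes moved both ways in the knockdown. Srxn1, Hmox1, Gss and Sod2 rose, by 0.53 to 1.10 on the log2 scale, and Mgst1, Gstm1, Gstm2, Glrx, Gstm5 and Txnrd1 fell, by 0.32 to 0.93. That is 10 of the 38 tested members (26.3%) past the test, 4 higher and 6 lower, where 14.4% of all tested genes passed (limma, adjusted p under 0.05 over all 7815 genes). By direction, 10.5% of the members were higher, against 9.33% of all genes, and 15.8% were lower, against 5.09% of all genes. The median log2 difference was -0.04 over the members and 0.04 over all tested genes. The arrays of the groups did not overlap for 27 of the 38 members (71.1%), against 60.2% of all tested genes. Of the 27, 13 lay higher in the knockdown, where 34.3% of all genes did, and 14 lower, where 25.9% did.

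**Figure D1:**
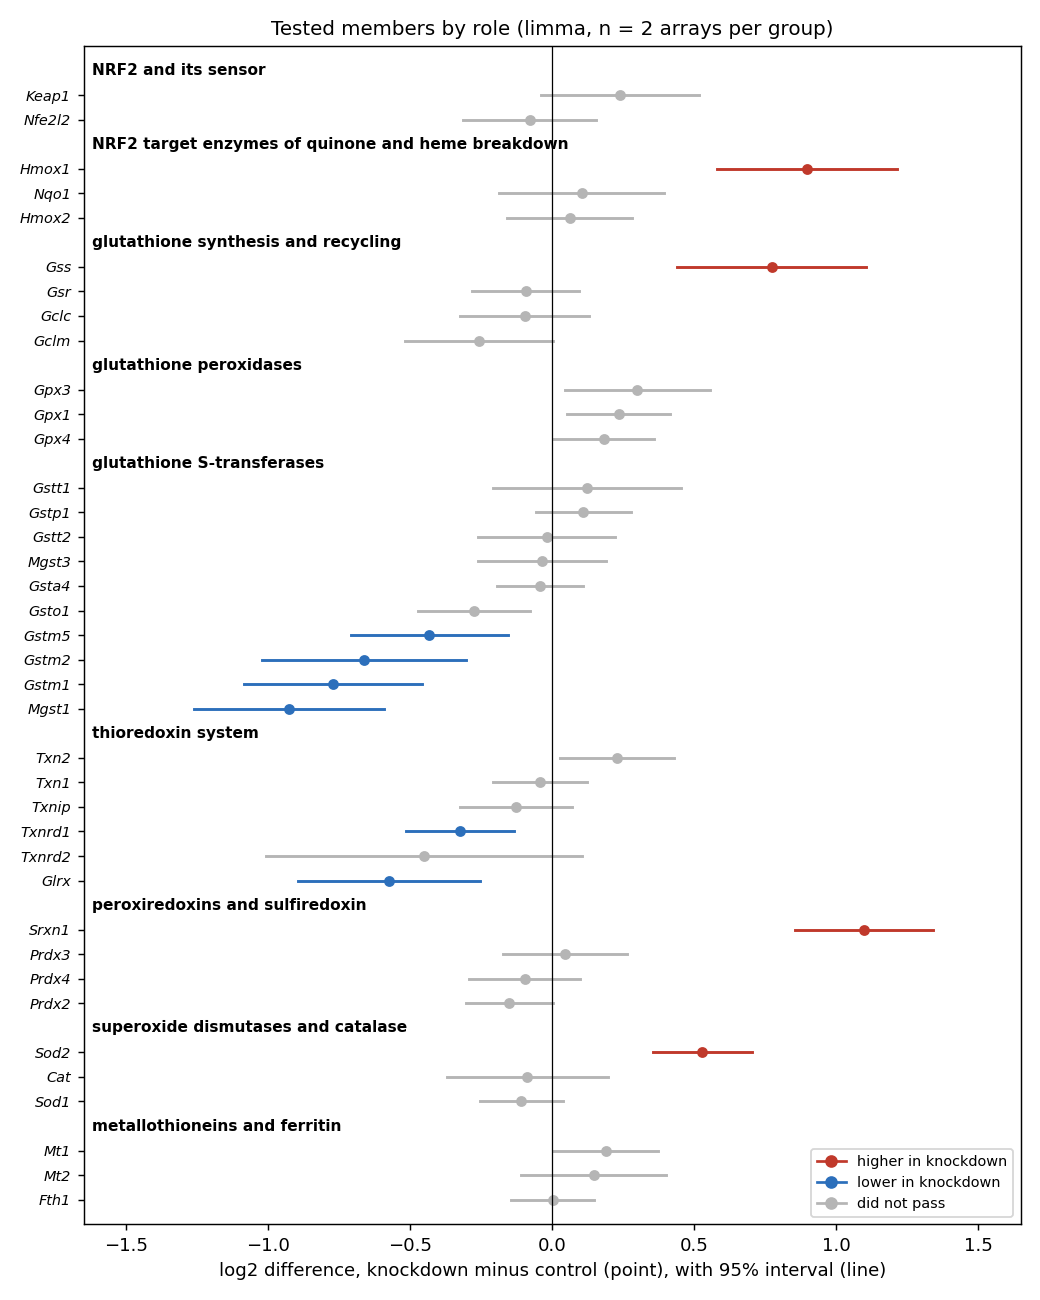
The plot gives the log2 difference (knockdown minus control, horizontal axis) of each of the 38 tested members by role, as a point with its 95% interval from limma (n = 2 arrays per group). Red marks the 4 members that were higher past the test, blue the 6 that were lower, and grey the 28 that did not pass. The glutathione S-transferases hold 4 of the 6 falls and no rise.

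These directions are relative to the deposited scale. With each array scaled to its hybridisation spike-ins, the median of all 7815 genes moved to a log2 difference of 0.31, against 0.04 as deposited, and the members gave 7 rises and 1 fall. The split over all genes was 729 higher and 398 lower as deposited, 622 and 598 with each array centred on its median, and 1478 and 37 with the spike-in scaling. Each of the 10 called members kept its sign in every setting run. As the samples are bulk RNA, fewer cells of a type and less RNA per cell cannot be told apart.

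To show what the called members have at their starts, promoter windows were taken from RefSeq (GRCm38.p6), which held 38 of the 44 members and, among the called ones, lacked Hmox1. Each window runs from 250 bases before a start to 50 bases from it, 300 bases in all. The core of the antioxidant response element, TGACNNNGC on either strand, lay in a window of Srxn1, which rose, and of Gstm5, Mgst1 and Txnrd1, which fell, and these 4 windows are shown for that reason. Capitals mark that core and, in Srxn1 and Gstm5, the AP-1 site TGACTCA, searched on both strands too. The windows are chr2:152105274-152105573 for Srxn1, chr3:107895604-107895903 for Gstm5, chr6:138140277-138140576 for Mgst1 and chr10:82858956-82859255 for Txnrd1, each on the plus strand.
Srxn1: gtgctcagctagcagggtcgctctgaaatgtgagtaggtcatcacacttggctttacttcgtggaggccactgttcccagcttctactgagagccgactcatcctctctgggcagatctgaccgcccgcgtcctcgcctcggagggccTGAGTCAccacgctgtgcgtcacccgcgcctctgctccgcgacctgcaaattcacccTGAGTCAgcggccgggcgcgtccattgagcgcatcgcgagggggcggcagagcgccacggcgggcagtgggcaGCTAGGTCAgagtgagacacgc
Gstm5: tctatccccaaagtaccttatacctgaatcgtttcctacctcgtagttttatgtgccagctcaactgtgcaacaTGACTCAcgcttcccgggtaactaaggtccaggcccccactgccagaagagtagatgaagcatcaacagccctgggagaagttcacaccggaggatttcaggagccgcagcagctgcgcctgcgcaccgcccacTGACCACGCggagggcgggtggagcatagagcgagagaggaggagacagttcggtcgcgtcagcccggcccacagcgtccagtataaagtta
Mgst1: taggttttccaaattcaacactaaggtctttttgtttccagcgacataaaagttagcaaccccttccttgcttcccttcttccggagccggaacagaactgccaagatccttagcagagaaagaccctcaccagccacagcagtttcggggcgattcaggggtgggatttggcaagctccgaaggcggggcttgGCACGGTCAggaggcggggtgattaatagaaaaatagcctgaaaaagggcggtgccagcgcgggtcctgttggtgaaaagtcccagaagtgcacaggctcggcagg
Txnrd1: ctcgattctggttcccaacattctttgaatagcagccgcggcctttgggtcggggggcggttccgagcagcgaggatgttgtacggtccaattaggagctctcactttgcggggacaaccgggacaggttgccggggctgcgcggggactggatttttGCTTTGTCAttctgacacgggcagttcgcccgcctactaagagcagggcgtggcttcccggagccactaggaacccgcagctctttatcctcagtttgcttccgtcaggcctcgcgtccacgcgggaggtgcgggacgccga
In Srxn1 the AP-1 sites begin at positions -102 and -45 relative to the start and the antioxidant core begins at position 29 after it.

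The antioxidant core occurred in 12.4% of all 32851 promoter windows and in at least 1 window of 14.0% of genes. Among the members it occurred in 10 of 38 (26.3%): in 1 of the 3 that rose, in 3 of the 6 that fell and in 6 of the 29 others. The AP-1 site occurred in 5.95% of genes and in 7 of the 38 members (18.4%). The 2 motifs can overlap, as they do in Mt2 and Prdx1. The string TGCNCNC on either strand, a loose form of the metal response element core, occurred in 53.6% of genes. It lay in 18 of the 38 members (47.4%), among them Mt1 and Mt2. These are matches of letters within the windows, with no measurement of binding.

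The regulators themselves did not pass the test. Nfe2l2, which encodes NRF2, had 400.7 and 351.8 signal units on the knockdown arrays against 376.6 and 419.9 on the control arrays. The groups overlapped, and the log2 difference was -0.08 with a 95% interval of -0.31 to 0.16. Keap1 had 128.2 and 123.1 on the knockdown arrays against 97.8 and 109.2 on the control arrays, with no overlap, and its log2 difference of 0.24 had an interval of -0.04 to 0.52 (limma, adjusted p = 0.222). A further probe set of Keap1 gave 46.5 and 43.5 on the knockdown arrays against 38.2 and 40.1 on the control arrays, in the same direction and also not past the test.

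Hmox1 rose. It encodes heme oxygenase 1, the inducible enzyme that breaks heme down to biliverdin, carbon monoxide and iron. Its signal was 494.3 and 533.6 on the knockdown arrays against 223.9 and 316.3 on the control arrays. Both knockdown arrays lay well above both control arrays, and the control arrays differed more from each other than the knockdown arrays did. The log2 difference was 0.90 ± 0.14 (SE, with limma's adjusted p = 0.00381). Without control replicate 1 it was 0.67, and the call held in all 15 other settings run.

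The other heme and quinone enzymes did not pass. Hmox2, the constitutive heme oxygenase, had 340.3 and 374.7 on the knockdown arrays against 347.8 and 335.0 on the control arrays, which overlap. Nqo1, a quinone reductase and a textbook NRF2 target, had 93.1 and 86.9 on the knockdown arrays against 80.7 and 84.0 on the control arrays. Its groups did not overlap, but the log2 difference of 0.10 had a 95% interval of -0.19 to 0.40.

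Of the 4 genes of glutathione synthesis and recycling, Gss rose and the other 3 did not pass. Gss encodes glutathione synthetase, which joins glycine to gamma-glutamylcysteine. Its signal was 121.1 and 140.1 on the knockdown arrays against 59.2 and 77.7 on the control arrays. The groups were well separated, with a log2 difference of 0.77 ± 0.15 (SE, with limma's adjusted p = 0.0094). Gss has a single probe set, and its call was lost when genes below the filter were included (adjusted p = 0.057, with a range of 6.16e-05 to 0.057 over 15 settings).

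Gclc and Gclm encode the catalytic and the modifier subunit of glutamate-cysteine ligase. Gclc had 251.8 and 240.5 on the knockdown arrays against 273.2 and 256.3 on the control arrays, a log2 difference of -0.10 (95% interval -0.33 to 0.13). Its further probe set went the other way, with 248.7 and 227.9 on the knockdown arrays against 214.8 and 242.6 on the control arrays, and those groups overlapped. Gclm had 565.2 and 460.3 on the knockdown arrays against 568.9 and 661.9 on the control arrays. Its groups came close without overlapping, and the log2 difference was -0.26 (95% interval -0.52 to 0.0033; limma, adjusted p = 0.165). Without knockdown replicate 1 Gclm passed (log2 difference -0.40, adjusted p = 0.044). Gsr, glutathione reductase, had 818.9 and 890.6 on the knockdown arrays against 941.1 and 884.0 on the control arrays, with overlapping groups. Its further probe set did not overlap, with 505.6 and 427.3 on the knockdown arrays against 598.6 and 583.4 on the control arrays, and missed the threshold by itself (log2 difference -0.33, limma, adjusted p = 0.0788).

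The glutathione peroxidases reduce peroxides with glutathione, and Gpx4 acts on lipid peroxides in membranes. All 3 tested members had higher signals on both knockdown arrays than on both control arrays, as 34.3% of all tested genes did. Of these members, 0 passed the test (limma). All 3 had an unadjusted p under 0.05 (limma), which 19.2% of all tested genes had in that direction. The tested peroxidase genes outside the members went the other way. Gpx2, Gpx7 and Gpx8 had log2 differences of -0.56, -0.21 and -0.44, each lower without overlap, as 25.9% of all tested genes were. Of these, Gpx2 passed, and Gpx7 and Gpx8 did not. Gpx1 had 3106.6 and 2802.9 on the knockdown arrays against 2655.6 and 2365.2 on the control arrays, a log2 difference of 0.23 ± 0.08 (SE, with limma's adjusted p = 0.0847). The differences of Gpx3 and Gpx4 were 0.30 and 0.18, with adjusted p of 0.109 and 0.148, and a further Gpx4 probe set gave 0.13 (adjusted p = 0.284 by itself). Gpx1 passed with the spike-in scaling (0.016), with quantile normalization (0.0226), with the replicate block (0.0459) and without control replicate 1 (0.0382), and Gpx3 and Gpx4 passed with the spike-in scaling (0.0379 and 0.0494).

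Among the glutathione S-transferases, 4 of the 10 tested members fell, 0 rose and 6 did not pass (limma), where 5.09% of all tested genes fell and 9.33% rose. The share that fell depends on the choice of members, which was made with earlier results of these data known. Outside the members, the tested transferase genes Gstm3, Gstm4, Gstt3, Gstk1 and Gstz1 did not pass, with log2 differences of -0.46 to -0.06. Of the 10 tested members, 5 were lower and 0 higher at an unadjusted p under 0.05 (limma). Of all tested genes, 12.1% were lower and 19.2% higher at that level. Mgst1, a microsomal transferase bound to membranes of the endoplasmic reticulum and mitochondria, had the largest fall of all 38 members. Its signal was 38.6 and 35.5 on the knockdown arrays against 96.7 and 80.9 on the control arrays, and the knockdown arrays lay far below the control arrays. The log2 difference was -0.93 ± 0.15 (SE, with limma's adjusted p = 0.00436), and the call held in all 13 settings in which the gene was tested. A further Mgst1 probe set lay near 0 on all arrays, at 4.20 or less, and was not tested.

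The mu class transferases Gstm1, Gstm2 and Gstm5, soluble enzymes that conjugate electrophiles to glutathione, all fell. Gstm1 had 64.0 and 52.7 on the knockdown arrays against 118.6 and 108.6 on the control arrays. A further Gstm1 probe set, of the kind that can bind several transcripts, gave 95.4 and 85.2 on the knockdown arrays against 178.3 and 165.3 on the control arrays. Both probe sets separated the groups clearly, with log2 differences of -0.77 ± 0.14 and -0.80 ± 0.12 (SE, with limma's adjusted p = 0.00741 in the gene fit and 0.00798 for the further probe set by itself). The remaining 2 Gstm1 probe sets read 9.90 or less on every array.

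Gstm2 had 27.6 and 36.9 on the knockdown arrays against 63.5 and 61.2 on the control arrays. This low signal separated the groups with a log2 difference of -0.66 ± 0.16 (SE, with limma's adjusted p = 0.0254). Gstm5 had 104.1 and 115.9 on the knockdown arrays against 163.7 and 147.3 on the control arrays, also without overlap. Its log2 difference was -0.43 ± 0.12 (SE, with limma's adjusted p = 0.0453), just past the threshold. Leaving out knockdown replicate 1, control replicate 1 or control replicate 2 ended the call of Gstm2 (adjusted p = 0.0638, 0.105 and 0.0828), and leaving out any of the 4 arrays ended that of Gstm5 (0.0637 to 0.2). With the spike-in scaling Gstm1, Gstm2 and Gstm5 all missed the threshold, at adjusted p of 0.0631, 0.13 and 0.58, and Gstm1 also did with the mean of its probe sets (0.0674). Over all settings run the adjusted p ranged over 0.00276 to 0.0674 for Gstm1, 0.0119 to 0.13 for Gstm2 and 0.0245 to 0.58 for Gstm5.

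The Gstm genes also share a location. As the members were chosen by gene symbol with earlier results known, the location is not separate from that choice. In the RefSeq annotation 7 Gstm genes lie in a row on chromosome 3 with no other protein-coding gene between them, in the order Gstm5, Gstm7, Gstm6, Gstm3, Gstm2, Gstm1 and Gstm4. Of the 5 that were tested, the 3 falls were Gstm5 at the first end and the neighbours Gstm2 and Gstm1. Gstm3 and Gstm4, which are not members, had log2 differences of -0.14 (95% interval -0.57 to 0.29) and -0.06 (95% interval -0.45 to 0.32). Gstm7 had 17.4 and 28.9 on the knockdown arrays against 19.5 and 22.6 on the control arrays. The mu class genes are similar in sequence, so a probe set named for 1 of them may bind transcripts of another.

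Transferases of the other classes did not pass. Gsta4, an alpha class enzyme that acts on lipid aldehydes, had 1924.1 and 1931.6 on the knockdown arrays against 1985.4 and 1988.9 on the control arrays. The replicates were close and the groups did not overlap, with a log2 difference of -0.04 and a 95% interval of -0.19 to 0.11. Gsto1, the omega class enzyme, came nearest to the threshold, at a log2 difference of -0.28 ± 0.09 (SE, with limma's adjusted p = 0.0656). A further Gsto1 probe set gave -0.31 (adjusted p = 0.152 by itself). Gsto1 passed with median centring (0.0362), with the crossed replicate block (0.0421) and without knockdown replicate 1 (0.0494). The differences of Gstp1, Gstt1, Gstt2 and Mgst3 lay between -0.04 and 0.12. Mgst2 read 4.30 or less on all arrays.

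**Figure D2:**
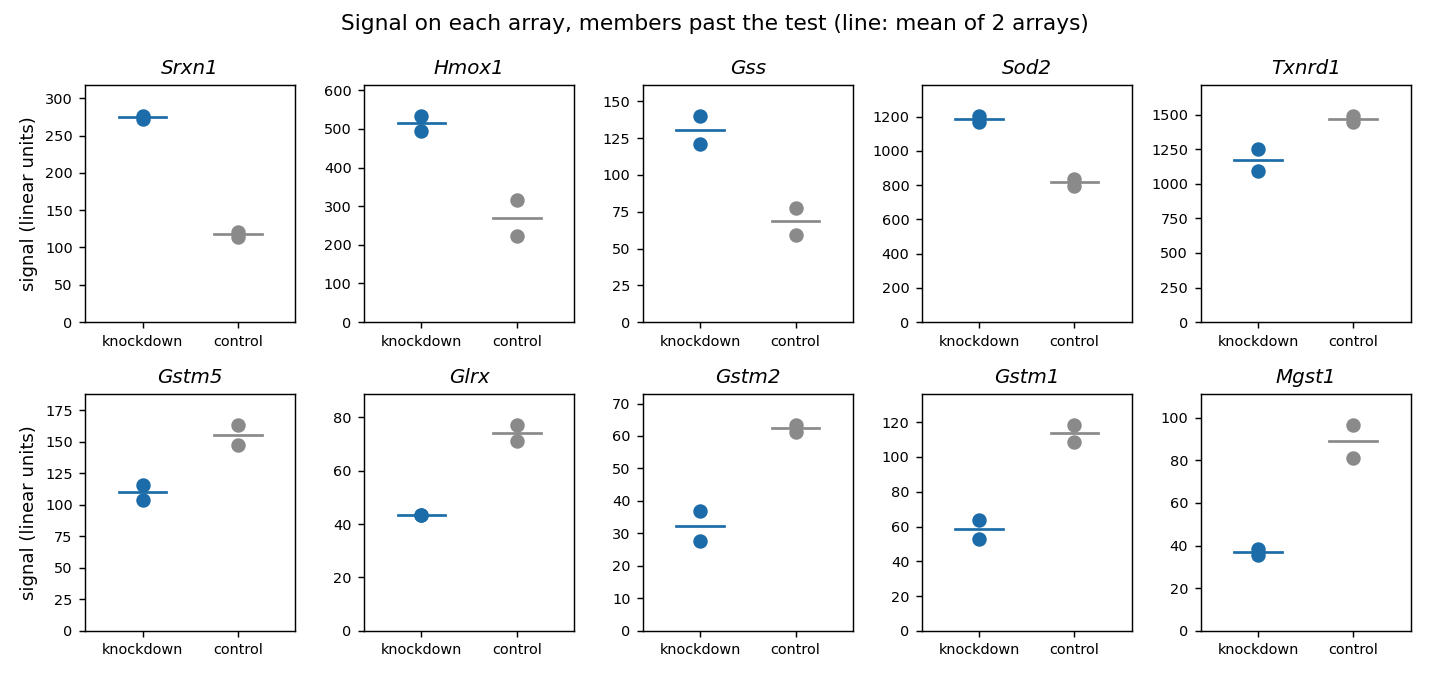
Each panel shows the linear signal (vertical axis, from 0) of a member past the test on the 2 knockdown arrays (blue, left) and the 2 control arrays (grey, right), with a line at the mean of each group. The groups do not overlap in any of the 10 panels, which also holds for 60.2% of all tested genes. Srxn1 is at 276.4 and 272.1 on the knockdown arrays against 120.3 and 114.7 on the control arrays.

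The thioredoxin system, listed here together with the glutaredoxin gene Glrx, had 6 tested members. Of these 6, 2 fell, Glrx and Txnrd1 (33.3%, where 5.09% of all tested genes did), and 4 did not pass. Glrx encodes glutaredoxin 1, which removes glutathione from protein thiols. Its signal was 43.2 and 43.3 on the knockdown arrays against 71.2 and 77.2 on the control arrays. A further probe set gave 21.5 and 7.9 on the knockdown arrays against 57.5 and 60 on the control arrays. With a mean of 14.7 in the knockdown, it passed the filter only through the control, so it is no separate support for the fall. The log2 differences were -0.57 ± 0.14 and -1.21 ± 0.21 (SE, with limma's adjusted p = 0.0279 in the gene fit and 0.012 for the further probe set by itself). The call of Glrx ended on leaving out knockdown replicate 2 or either control array (adjusted p = 0.0626, 0.0829 and 0.137) and with the spike-in scaling (0.232), within a range of 0.00332 to 0.232 over 14 settings.

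Txnrd1 encodes the cytosolic thioredoxin reductase, a selenoprotein that reduces thioredoxin with NADPH. It had 1255.9 and 1091.2 on the knockdown arrays against 1492.0 and 1450.5 on the control arrays. The groups did not overlap, and the log2 difference was -0.32 ± 0.09 (SE, with limma's adjusted p = 0.035). Its further probe sets gave -0.15 and -0.22 and did not pass, and by itself the first probe set did not pass either (adjusted p = 0.0548). Txnrd1 lost its call in 7 of 15 settings, among them without knockdown replicate 2 (adjusted p = 0.202), without control replicate 1 (0.0813) and with the spike-in scaling, where its difference was -0.02 (0.95); the range was 0.0118 to 0.95.

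Txn1, thioredoxin itself, had 3040.0 and 2916.7 on the knockdown arrays against 3238.7 and 2907.4 on the control arrays. Its groups overlapped, and so did those of a dim further probe set, at 74.5 and 209.9 on the knockdown arrays against 101.8 and 47.7 on the control arrays. Txn2, the mitochondrial thioredoxin, had 595.6 and 612.3 on the knockdown arrays against 488.5 and 536.9 on the control arrays (log2 difference 0.23, limma, adjusted p = 0.115). Its further probe sets differed by -0.18 and 0.01, so they did not share a direction. Txnip, which binds and inhibits thioredoxin, had 879.2 and 836.7 on the knockdown arrays against 999.6 and 882.2 on the control arrays, and its further probe set differed by 0.005. Txnrd2, the mitochondrial reductase, read 17.2 on knockdown replicate 1 and 47.2 on replicate 2, against 48.8 and 48.0 on the control arrays. It did not pass (log2 difference -0.45 ± 0.25, limma, adjusted p = 0.247) but did without knockdown replicate 2 (0.0123).

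Srxn1 had the largest rise of all 38 members. It encodes sulfiredoxin, which repairs overoxidised peroxiredoxins. Its signal was 276.4 and 272.1 on the knockdown arrays against 120.3 and 114.7 on the control arrays. The replicates lay close together and the groups far apart, with a log2 difference of 1.10 ± 0.11 (SE, with limma's adjusted p = 0.000352). A further probe set rose by 0.68 ± 0.12 (adjusted p = 0.012 by itself), another differed by 0.84 ± 0.22 (0.0516), and the last was too dim to test. The call held in all 15 settings.

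The peroxiredoxins, thiol peroxidases that use thioredoxin, did not pass where they could be tested. Prdx2 had 2462.0 and 2302.6 on the knockdown arrays against 2646.6 and 2645.5 on the control arrays, a log2 difference of -0.15 (95% interval -0.30 to 0.0022). The groups did not overlap, while its further, dim probe set differed by 0.01. Prdx3, the mitochondrial form, had 574.1 and 549.0 on the knockdown arrays against 585.3 and 504.1 on the control arrays. Prdx4, the form of the endoplasmic reticulum, had 893.6 and 998.0 on the knockdown arrays against 973.7 and 1051.0 on the control arrays. Both overlapped between the groups, and the further Prdx4 probe sets differed in opposite directions (-0.34 and 0.43), neither past the test.

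Sod2, the mitochondrial superoxide dismutase, rose, while the cytosolic enzyme and catalase did not pass. Sod2 had 1171.1 and 1204.7 on the knockdown arrays against 837.5 and 797.2 on the control arrays. Its replicates were close and its groups well apart, with a log2 difference of 0.53 ± 0.08 (SE, with limma's adjusted p = 0.00271), and the call held in all 15 settings. The further Sod2 probe sets went the same way without passing by themselves, at 0.25 (adjusted p = 0.133) and 0.38 (0.167). Sod1 had 2639.8 and 2708.8 on the knockdown arrays against 2864.8 and 2903.3 on the control arrays. Its groups did not overlap, and the log2 difference was -0.11 with a 95% interval of -0.25 to 0.04. A dim further probe set of Sod1 differed by 0.09. Cat, catalase, had 200.9 and 162.6 on the knockdown arrays against 184.6 and 202.4 on the control arrays, with overlapping groups. Its further probe set did not overlap, with 111.6 and 135.0 on the knockdown arrays against 154.2 and 169.0 on the control arrays, and did not pass by itself (log2 difference -0.35, limma, adjusted p = 0.132).

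Metallothioneins bind zinc and other metals, and ferritin stores iron. Mt1 had 1210.3 and 1359.1 on the knockdown arrays against 1135.0 and 1111.0 on the control arrays, a log2 difference of 0.19 (limma, adjusted p = 0.151). Mt2 had 2268.4 and 2032.6 on the knockdown arrays against 2211.8 and 1698.3 on the control arrays. Mt1 did not overlap between the groups and Mt2 did, and Mt2 passed without control replicate 1 (adjusted p = 0.037). Fth1, the ferritin heavy chain, depended on the probe set. The probe set used for the gene had 2909.4 and 3036.0 on the knockdown arrays against 3015.7 and 2921.8 on the control arrays, with overlapping groups and a log2 difference of 0.002. The other had 1627.6 and 1359.6 on the knockdown arrays against 1877.1 and 2046.2 on the control arrays, without overlap, and was lower by itself (-0.39 ± 0.10, SE, with limma's adjusted p = 0.0423).

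Taken by probe set, 12 of the 61 tested member probe sets (19.7%) passed, 5 higher and 7 lower. Of all 12543 tested probe sets 9.26% passed, 5.90% higher and 3.36% lower. The 5 higher ones belong to Srxn1, with 2, and to Hmox1, Gss and Sod2. The 7 lower ones belong to Gstm1 and Glrx, with 2 each, and to Mgst1, Gstm2 and Fth1. Among them, the further Glrx probe set passed the filter only through the control arrays. Txnrd1 and Gstm5 passed in the fit by gene and not in the fit by probe set, where their adjusted p was 0.0548 and 0.0652. In 8 genes the tested probe sets differed in sign: Fth1, Gclc, Prdx2, Prdx4, Sod1, Txn1, Txn2 and Txnip, none of which passed in the fit by gene.

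**Figure D3:**
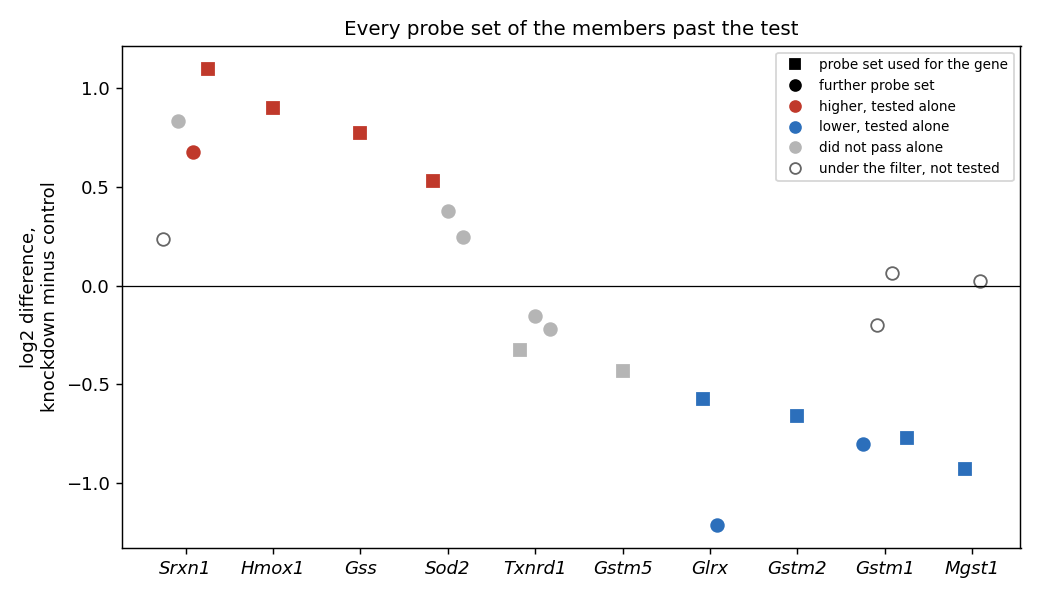
The plot gives the log2 difference (knockdown minus control, vertical axis) of every probe set of the 10 members past the test, with a square for the probe set used for the gene and circles for the others. Red and blue mark probe sets that passed by themselves, grey those that did not, and open circles those under the filter. All tested probe sets of a gene lie on the same side of 0.

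Outside the members, 116 other genes of the pathway were listed, of which 83 were tested. Of these, 5 rose, 9 fell and 69 did not pass, which is 16.9% past the test where 14.4% of all tested genes passed. The median log2 difference was -0.06, against 0.04 over all genes.

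Of 9 tested regulators of NRF2, 1 rose (11.1%, against 9.33% of all tested genes) and 2 fell (22.2%, against 5.09%). Sqstm1 encodes p62, which binds KEAP1 and is itself an NRF2 target. It had 861.5 and 967.3 on the knockdown arrays against 537.0 and 518.6 on the control arrays, a log2 difference of 0.77 ± 0.09 (SE, with limma's adjusted p = 0.00078) that held in all 15 settings. Bach1, a repressor that binds antioxidant response elements and keeps Hmox1 low, had 127.6 and 110.7 on the knockdown arrays against 189.7 and 184.2 on the control arrays. Its log2 difference of -0.58 ± 0.12 (SE, with limma's adjusted p = 0.0131) no longer passed without knockdown replicate 2 (0.057), with the mean of its probe sets (0.127) and with the spike-in scaling (0.287). The range for Bach1 over 15 settings was 0.00624 to 0.287. Dpp3, a peptidase that can bind KEAP1, fell too (log2 difference -0.50, limma's adjusted p = 0.0149). Using the mean of its probe sets Dpp3 gave -0.12 (adjusted p = 0.612, range 0.00334 to 0.612), and without knockdown replicate 2 its adjusted p was 0.0729.

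Of 14 tested genes of cysteine supply and glutathione turnover, 1 rose and 2 fell, which is 21.4% past the test against 14.4% of all tested genes. Chac1 encodes an enzyme that cleaves glutathione in the cytosol. It had 215.2 and 172.0 on the knockdown arrays against 463.4 and 507.4 on the control arrays, and its log2 difference was -1.25 ± 0.12 (SE, with limma's adjusted p = 0.000319). Abcc1, an exporter of glutathione and its conjugates, had 118.3 and 111.8 on the knockdown arrays against 175.6 and 193.7 on the control arrays. Abcc5, a related exporter, had 310.5 and 331.2 on the knockdown arrays against 224.5 and 210.9 on the control arrays. Neither exporter overlapped between the groups, and the log2 differences were -0.60 for Abcc1 and 0.52 for Abcc5 (limma, adjusted p = 0.0101 for both). Abcc1 lost its call with the spike-in scaling (0.248, range 0.00432 to 0.248) and Abcc5 with the mean of its probe sets (0.131, range 0.00291 to 0.131).

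Of 32 further glutathione and thiol enzymes, 1 rose and 2 fell, a share of 9.38% that lies below the 14.4% of all genes. Txnl4a, a thioredoxin-like protein of the spliceosome, rose by 0.31 on the log2 scale, and the selenoprotein gene Selenow (-0.33) and the glutathione peroxidase gene Gpx2 (-0.56) were lower. Their adjusted p lay between 0.0344 and 0.0404. Leaving out any of the 4 arrays ended the call of Gpx2. Txnl4a no longer passed without either knockdown array or control replicate 2, and Selenow without either knockdown array or control replicate 1. Both log2 differences still had the same sign in every setting, down to 0.24 for Txnl4a and -0.03 for Selenow.

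Among 13 genes of NADPH supply, Mthfd2 and Pgd fell and Nadk rose, which is 23.1% past the test against 14.4% of all tested genes. Mthfd2, the mitochondrial folate dehydrogenase, had 569.0 and 545.8 on the knockdown arrays against 849.4 and 903.0 on the control arrays. It was clearly separated, with a log2 difference of -0.63 ± 0.08 (SE, with limma's adjusted p = 0.00154). With the spike-in scaling Mthfd2 missed the threshold (0.232, range 0.000467 to 0.232). Pgd, 6-phosphogluconate dehydrogenase of the pentose phosphate pathway, gave -0.30 (adjusted p = 0.0433), and Nadk, the cytosolic NAD kinase, gave 0.34 (0.0273). Pgd missed the threshold on leaving out any of the 4 arrays, and Nadk on leaving out any but knockdown replicate 1.

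Of 15 genes of iron, heme and metal handling, 1 rose and 1 fell, a share of 13.3% that lies near the 14.4% of all tested genes. Slc40a1, ferroportin, which exports iron, had 70.3 and 89.5 on the knockdown arrays against 45.8 and 41.6 on the control arrays. Blvrb, a reductase of flavins and of biliverdin IX beta, had 62.5 and 76.4 on the knockdown arrays against 120.8 and 115.4 on the control arrays. Neither overlapped between the groups, and the log2 differences were 0.64 ± 0.16 and -0.63 ± 0.14 (SE, with limma's adjusted p = 0.0251 and 0.0163). Slc40a1 missed the threshold when knockdown replicate 2 (0.113) or control replicate 2 (0.0808) was left out, and Blvrb without control replicate 1 (0.06) or with the spike-in scaling (0.186). The adjusted p ranged over 0.00114 to 0.113 for Slc40a1 and 0.00769 to 0.186 for Blvrb. Blvra, which reduces the biliverdin that heme oxygenase makes, had 92.0 and 73.0 on the knockdown arrays against 62.9 and 63.1 on the control arrays and did not pass (log2 difference 0.30, limma, adjusted p = 0.2).

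**Figure D4:**
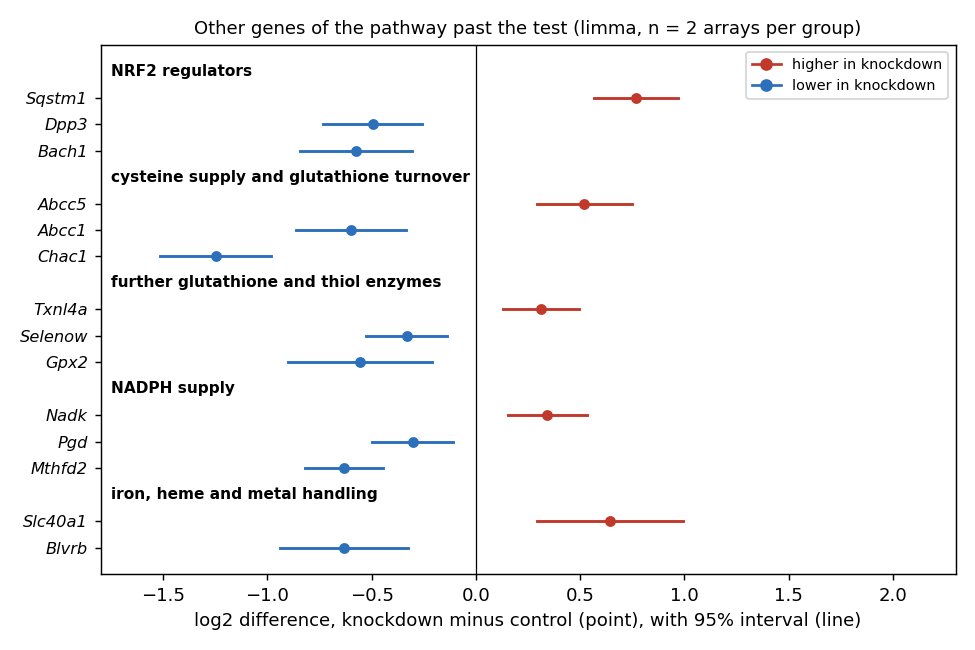
The plot gives the log2 difference (knockdown minus control, horizontal axis) with its 95% interval for the 14 other genes of the pathway past the test, grouped by list (n = 2 arrays per group). The 5 genes in red were higher and the 9 in blue were lower, with Chac1 at -1.25 and Sqstm1 at 0.77.

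Markers of other cell types were read beside these results. Of 15 fibroblast markers, 4 were tested and 0 passed (limma; 2 higher and 1 lower at an unadjusted p under 0.05, against 19.2% and 12.1% of all tested genes), and the summed signal was 416.5 and 490.1 on the knockdown arrays against 376.4 and 386.6 on the control arrays. Col1a1, Col3a1, Postn, Lum and Dcn read 23.5 or less on every array. The tested markers Col5a1, Fbln1 and Acta2 were higher without overlap, as 34.3% of all tested genes were. Thy1, the other tested marker, was lower without overlap, as 25.9% of all tested genes were. Of 11 primitive endoderm markers, 3 were tested, and Foxa2 was the 1 that rose (33.3% of those tested, against 9.33% of all tested genes). Its log2 difference was 0.94 (limma, adjusted p = 0.0139). Its mean was 43.8 on the knockdown arrays and 13.1 on the control arrays, so it passed the filter only through the knockdown. The sums for that list, most of it Lamb1 and Dab2, were 470.1 and 417.3 on the knockdown arrays against 432.5 and 448.2 on the control arrays. Under the filter, Gata4, Sox17, Sox7 and Afp were higher without overlap, as 34.3% of all tested genes were. No such share was computed for genes under the filter, either here or for the markers named below. Gata4 had 18.5 and 29.1 on the knockdown arrays against 9.1 and 15.6 on the control arrays. Gata6 was lower without overlap, as 25.9% of all tested genes were, and Amn, Cubn and Ttr overlapped. Afp and Ttr read 7.60 or less. Of 11 trophectoderm markers, 5 were tested, and Tfap2c, Krt8 and Hand1 rose (60% of those tested, against 9.33% of all tested genes). Hand1 passed the filter only through the knockdown, with a mean of 50.4 there and 20.3 in the control. The sums for the list, most of it Krt8 and Krt18, were 1489.2 and 1592.0 on the knockdown arrays against 932.8 and 991.9 on the control arrays. Cdx2, which defines that lineage, was below the filter level, at 21.6 and 29.0 on the knockdown arrays against 8.70 and 12.1 on the control arrays. Of the other markers under the filter, Tead4 had 4.10 and 3.90 on the knockdown arrays against 14.0 and 15.9 on the control arrays. Ascl2 had 8 and 5.80 on the knockdown arrays against 15.3 and 12 on the control arrays. Tead4 and Ascl2 were both lower without overlap, as 25.9% of all tested genes were. Elf5 and Krt7 were higher without overlap, as 34.3% of all tested genes were, and Gata3 overlapped. Tfap2c and Krt8 thus moved with the rises of Srxn1, Hmox1, Gss and Sod2, and their part in those rises was not tested.

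**Figure D5:**
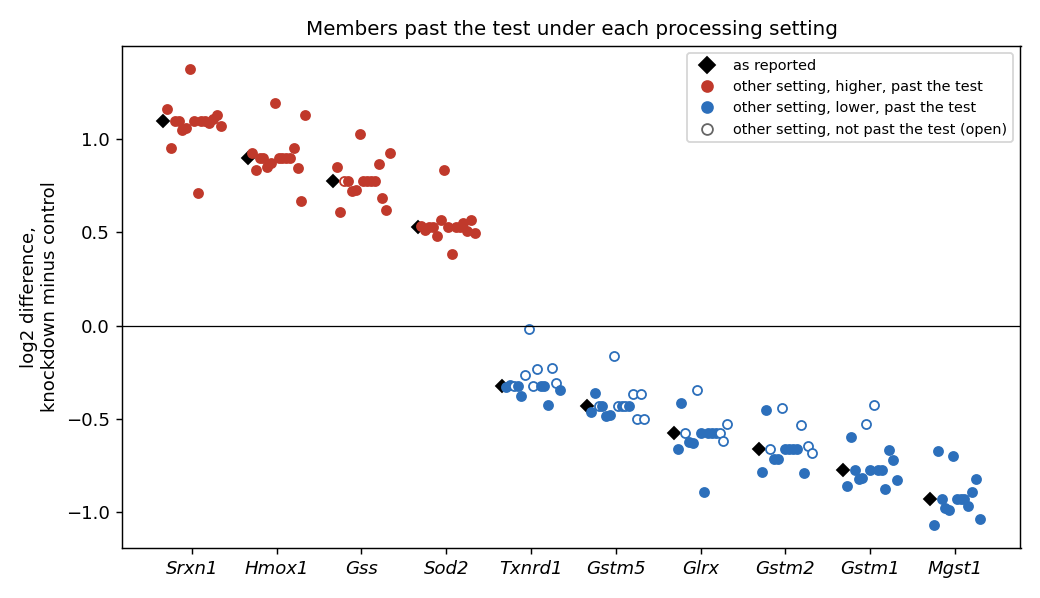
The plot gives the log2 difference (knockdown minus control, vertical axis) of each member past the test as reported (black diamond) and under each of the other settings (circles, filled where the adjusted p was under 0.05). No circle crosses 0, and the open circles lie mostly with Txnrd1, Gstm5, Glrx and Gstm2, which lost their calls in 7, 8, 5 and 5 settings.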

How the data were processed

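RNA was measured on 1 Affymetrix array per sample. The deposited values are linear intensity signals per probe set, made by the authors with GCOS per the submitters' processing notes; the sources used here do not state its version, algorithm or scaling target. Every array had a mean of 200.1 after trimming 2% at each end, so the arrays share 1 scale. Of 22690 probe sets, 64 were controls, 20380 had 1 gene in the platform annotation, 691 several and 1555 none. Symbols were updated by Entrez ID through RefSeq GRCm38.p6 for 20351 of the 20380.

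Signals were analysed as log2(signal + 20.0), with no further normalization, so folds of dim genes are understated. Each gene was read from its brightest probe set, taking the _x_at kind last. Genes from the 40th percentile of non-control probe sets upward (23.9 units) were tested with limma 3.58.1 in R 4.3.3 (lmFit, and eBayes with an intensity trend; two-sided; Benjamini-Hochberg over all 7815 genes; threshold 0.05). Each probe set with 1 gene was also fitted by itself. With 2 arrays per group, their number limits the precision. The alternatives changed the pseudocount, filter, normalization, variance model, probe set, threshold and call rule, added the replicate number as a block, or left out an array, after which 1 group's lone array is assumed to vary like the other group.

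Values on every array are given for called members, members whose tested probe sets disagree, the brightest of each role and the central NRF2 genes, and up to 4 called genes of each other list are named; Gpx4, Gsto1, Txnrd2 and others beyond that rule were picked with their values known. The members and lists were chosen with earlier results of these data known.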

Additional observations from a re-analysis of the deposited data

How the results depend on the processing

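Of the 10 called members, Srxn1, Hmox1 and Sod2 passed in all 15 other settings and Mgst1 in the 13 in which it was tested. The count of 10 member genes was 5 with no filter, 6 with the stricter filter (60th percentile) and 6 at a threshold of 0.01, and all of these were among the 10. It ranged from 7 to 10 when single arrays were left out. The count of 12 member probe sets was 6, 7 and 5 under the same 3 settings and ranged from 3 to 14 without single arrays, with 3 without control replicate 1. The count of 14 other pathway genes was 5 with no filter, 3 at 0.01 and 9 without the intensity trend, and 7 to 17 without single arrays, with 7 without knockdown replicate 2 and 9 without control replicate 1. Over all genes, the count of 1127 was 433 with no filter, 393 at 0.01 and 614 without knockdown replicate 2; with no filter, 12393 genes were tested. With the stricter filter 31 members were tested, and the lost calls, Glrx, Gstm1, Gstm2 and Mgst1, were of genes below it. The causes of the other shifts were not tested. Same-numbered samples share only a number: their deviations from the group means correlated at -0.14 over 7815 genes. With the replicate block, 10 member genes, 14 member probe sets and 13 other pathway genes were called, and Gstm5 and Pgd lost their calls (adjusted p = 0.0501 and 0.0518). With the crossed block, added after seeing the data, the counts were 11, 16 and 21. With the spike-in scaling the counts were 8 member genes (7 higher, 1 lower) and 17 other pathway genes (16 higher, 1 lower). No called gene changed sign in any setting. With the mean of all probe sets Mgst1 fell under the filter and had no value, and the member probe sets have no such setting. Low signal limits Mgst1, Gstm2, Glrx and Txnrd2, which read between 17.2 and 47.2 in the knockdown, near the pseudocount of 20.0.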
